A study of Mus musculus with 2 samples.

Results

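The transcription factor p53, encoded by Trp53 in the mouse, its inhibitors Mdm2 and Mdm4, and genes that p53 is known to activate were followed as a set of 31 genes in the embryonic mouse lung. The genes were picked by name as p53, its regulators and established targets, with earlier results of these data known. All 31 were found by NCBI gene number among the 41709 entries of the deposited tables. Polyadenylated RNA of whole C57BL/6 lungs at E14.5, a stage of airway branching, was sequenced in 2 libraries. The control library came from wild-type lungs, per the series' design text, and the other from lungs labelled Prmt5 knockdown, whose sample title also names Shh. Each library was a pool of 7 lungs. The labels do not state how Prmt5 was altered, whether Shh was altered too, or in which cells. Gene counts summed to 22581490 reads for wild type and 25829281 for the library labelled knockdown.

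In unstressed cells p53 protein is kept scarce because Mdm2, a ubiquitin ligase, marks it for destruction and Mdm4 blocks its activating domain. Stress such as DNA damage frees p53, which then binds DNA as a tetramer and switches on genes that halt the cell cycle, trigger cell death, repair DNA or restrain growth, Mdm2 itself among them. Prmt5 is an arginine methyltransferase that acts on histones, splicing factors and p53, and in other mouse tissues its loss has been linked to altered splicing of Mdm4 and to active p53. Because p53 is controlled mostly at the protein level, its targets are the usual RNA readout of its activity. Counts per gene do not show splice forms or protein.

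Several target promoters carry the sequence that p53 recognises, and these are shown first because the results below return to these genes. A p53 site consists of a pair of copies of a 10-base element, the p53 decamer, each with a core of CNNG, and the decamer reads the same on either strand. RefSeq windows on GRCm38.p6 of 300 bases, from 250 before to 50 after a transcription start, existed for 23 of the 31 genes. Perp, Pmaip1, Trp53inp1, Ptp4a3, Zmat3, Rrm2b, Tnfrsf10b and Trp53cor1 had no window, so whether they carry a site was not examined. The windows were searched for adjoining decamers with the core letters fixed and other letters free to differ, and no other motif was searched. With at most 1 differing letter a site was present for 3 of the 23 genes, Cdkn1a, Ccng1 and Gtse1, against 0.0670% of all 32851 windows and 0.0814% of all 27025 genes. With at most 3 differing letters it was present for 7 of the 23 genes (30.4%) against 1.63% of all genes. A match describes the letters only, and these genes had been chosen as p53 targets.

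The 3 closest matches are printed in the direction of transcription, with the 20-base match in capitals. Each window is cut at the transcription start, or at the end of the match in Gtse1. The Cdkn1a stretch lies at chr17:29090729-29090978 on the plus strand, Ccng1 at chr11:40755287-40755536 on the minus strand and Gtse1 at chr15:85859696-85859964 on the plus strand.
Cdkn1a: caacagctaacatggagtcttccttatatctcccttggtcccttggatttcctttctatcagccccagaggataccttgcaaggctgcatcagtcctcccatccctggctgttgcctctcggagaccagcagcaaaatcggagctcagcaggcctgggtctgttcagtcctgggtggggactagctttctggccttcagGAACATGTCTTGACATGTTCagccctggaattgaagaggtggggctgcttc
Ccng1: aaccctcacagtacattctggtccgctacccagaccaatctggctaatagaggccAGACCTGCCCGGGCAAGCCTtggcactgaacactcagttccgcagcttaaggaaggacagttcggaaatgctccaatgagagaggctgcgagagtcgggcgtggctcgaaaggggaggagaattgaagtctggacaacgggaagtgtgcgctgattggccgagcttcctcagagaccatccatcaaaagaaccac
Gtse1: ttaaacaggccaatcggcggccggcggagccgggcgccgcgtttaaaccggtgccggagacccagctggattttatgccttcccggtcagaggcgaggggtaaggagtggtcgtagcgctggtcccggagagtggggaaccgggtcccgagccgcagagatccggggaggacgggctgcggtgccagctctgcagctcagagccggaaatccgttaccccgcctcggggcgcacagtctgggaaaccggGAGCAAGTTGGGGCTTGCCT
The Cdkn1a match began 51 bases before the upstream of 2 annotated starts, which lies 2790 bases ahead of the other. In Ccng1 the match began 195 bases before the start, its only annotated one. Gtse1 has 2 annotated starts, 239 bases apart, and the match began 1 base before the downstream start, 238 bases past the upstream one. The window of the upstream Gtse1 start held no match closer than 6 differing letters, and that of the other Cdkn1a start none closer than 7.

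In 4 further genes the best match differed from the consensus at 3 positions. These matches lie at chr11:69580284-69580303 for Trp53 itself, chr7:16309486-16309505 for Bbc3, chr10:41887266-41887285 for Sesn1 and chr7:78895937-78895956 for Aen, all on the plus strand. The Bbc3 match belongs to its most upstream annotated start, and its other windows held none closer than 7 differing letters. The Sesn1 match belongs to its downstream start, and the upstream window held none closer than 8. The centre of the Aen match lies 20 bases past its upstream start and 111 bases before the other.
Trp53: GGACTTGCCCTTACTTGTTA
Bbc3: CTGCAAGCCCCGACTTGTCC
Sesn1: AAGCTTGTTTTTGCTGGCCT
Aen: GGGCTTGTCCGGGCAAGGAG

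A gene counted as measured from 50 reads in either library. It passed the rule of size when its ratio of knockdown over control was at least 1.5 in either direction. Counts were first scaled to effective library sizes, and the 95% counting interval of the ratio had to exclude 1. A gene with 50 reads only in the knockdown library could thus be called higher but not lower, and the reverse held for the control library. With 1 library per group there is no spread between replicates, so no p-value is given and no difference has a replicate check. Intervals cover counting error only, and reads copied by PCR are not independent molecules. Levels are the authors' FPKM, reads scaled to gene length and to the library total, which allow genes of unlike length to be compared. FPKM is scaled to library totals, which places the median gene 0.11 lower on the log2 scale than the scaling used for the ratios.

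The libraries also differed in the read shares of tissue markers, and each higher or lower value below stands beside that. Prmt5 had 2704 control and 2127 knockdown reads, 1.35-fold lower (95% counting interval 1.27 to 1.43). That is the direction of the label but not past the rule of size. Because the labels do not state in which cells Prmt5 was altered, a whole-lung ratio cannot measure the extent of the knockdown. Shh had 1124 and 109 reads, 10.9-fold lower. Of 12 lung epithelial markers 10 were lower past the rule and none higher, and they took 0.190% of all control reads against 0.0555% of knockdown reads, with Sftpc, Nkx2-1 and Etv5 holding the most reads. All 6 lung mesenchyme markers, Tbx4 and Foxf1 among them, were lower, with shares of 0.110% and 0.0334%. All 12 liver markers (0.00961% and 1.20% of reads), all 12 heart muscle markers (0.0234% and 0.662%), all 8 skeletal muscle markers (0.00436% and 0.145%) and all 10 red blood cell markers (0.0249% and 0.306%) were higher. The same held for all 10 immune, 7 nerve, 5 mesothelium, 5 thymus epithelium and 6 adrenal markers. In the control library Nppb, Pax1, Mc2r and Cyp11b1 were at 0 reads, and no marker was at 0 in the knockdown library. Markers short of the read minimum in the control library, these genes among them, could have passed only as higher. In such whole-organ RNA, fewer cells of a type and less RNA per cell cannot be told apart, and the part of these tissues in the p53 target values was not tested.

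Across all 14569 measured genes 33.0% passed the rule, 20.7% as higher and 12.3% as lower. Of the 31 p53 genes 30 were measured, and 12 of these (40.0%) were higher and 1 (3.33%) lower, with 17 not past it. The remaining gene, the long noncoding RNA Trp53cor1, had too few reads. The median log2 ratio of the 30 was 0.37, beside -0.01 for all measured genes. The counting interval lay above a ratio of 1 for 20 members, below it for 5, and included it for 5. These interval counts were not made for all measured genes, so they have no background share. They also depend on scaling, as Bax is among the 20 but had a log2 ratio of -0.005 with library totals. Together the 31 genes took 0.157% of control reads (0.156% to 0.159% by the exact binomial 95% interval) and 0.175% in the knockdown library (0.173% to 0.176%). Without the 3 members of largest ratio, Gdf15, Cdkn1a and Perp, 9 of 27 measured members were higher (33.3%) and 1 lower (3.70%), with a median of 0.32. The spread of the ratios was wide, with 5 members at least 4-fold higher, 3 between 2-fold and 4-fold, and 4 between 1.5-fold and 2-fold. These ranges too have no share over all measured genes beside them.

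**Figure D1:**
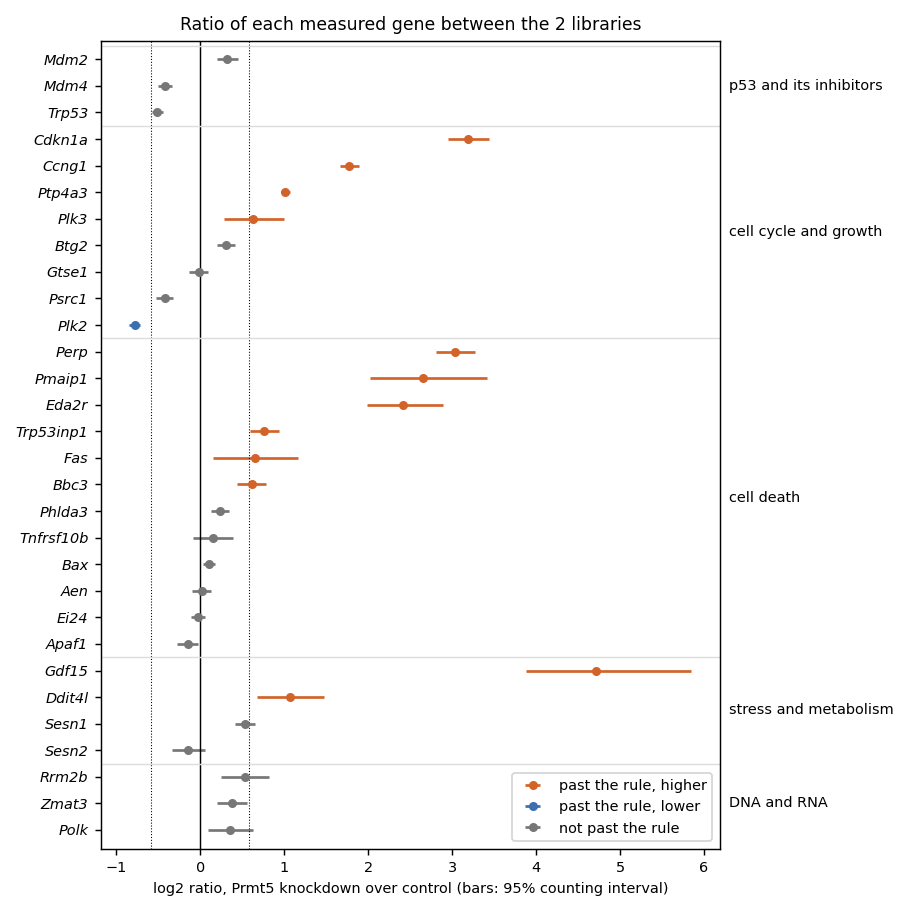
Log2 ratio of knockdown over control for the 30 measured genes, grouped by role, with 95% counting intervals as bars and dotted lines at a ratio of 1.5 in either direction. The 12 genes past the rule as higher run from Bbc3 to Gdf15, Plk2 is the only gene past it as lower, and the 3 genes of the p53 and inhibitor group lie inside the dotted lines.

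The p53 gene and its inhibitors did not pass the rule in either direction. Trp53 (NCBI gene 22059, chromosome 11, 69580348 to 69591873) was counted 4372 times in the control and 3256 times with knockdown, levels of 104 and 67.9 FPKM. It was the most abundant of the 31 genes in the control and the third in the knockdown library. Its log2 ratio was -0.51 (-0.58 to -0.44), or 1.42-fold lower. Scaled to library totals it was -0.62, which is past the rule. Mdm4 (chromosome 1, 132986105 to 133030587), which masks the activating domain of p53, had 2621 and 2073 reads and a log2 ratio of -0.42 (-0.51 to -0.34). Mdm2 (chromosome 10, 117688875 to 117710758), the ubiquitin ligase that p53 itself induces, had 938 and 1245 reads, 9.74 and 11.3 FPKM, and a log2 ratio of 0.32 (0.20 to 0.45). The intervals of Mdm4 and Trp53 overlapped, and that of Mdm2 lay apart from both. Per unit of length Mdm4 stood at 1.82 times Mdm2 in the control and 1.09 times in the knockdown library, and Mdm2 stood at 0.0934 and 0.167 of the level of Trp53.

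The group of cell cycle and growth genes, some of which restrain division while others take part in it, held the member with the second largest ratio and went both ways. Of its 8 genes 4 were higher and 1 lower, with 3 not past the rule. Cdkn1a (chromosome 17, 29090979 to 29100722) encodes p21, the inhibitor of cyclin-dependent kinases through which p53 halts the cell cycle. It had 153 control and 1480 knockdown reads, 1.76 and 14.9 FPKM, a log2 ratio of 3.19 (2.95 to 3.44). It was 9.10-fold higher and moved from rank 26 to rank 15 in level among the 31 genes. Ccng1 (chromosome 11, 40748552 to 40755309) encodes cyclin G1, which works with a phosphatase to regulate Mdm2. It had 861 and 3131 reads, 17.3 and 55.1 FPKM, and was 3.43-fold higher (3.18 to 3.70). Both genes carry a p53 site with 1 differing letter in the windows printed above.

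Ptp4a3 (chromosome 15, 73723145 to 73758766), a phosphatase of the PRL family, had 4089 and 8755 reads, 66.2 and 124 FPKM, and a log2 ratio of 1.01 (0.96 to 1.07), which made it the most abundant of the 31 genes in the knockdown library. The polo-like kinases went in opposite directions. Plk2 (chromosome 13, 110395044 to 110400844) had 5233 and 3227 reads, 82.7 and 44.6 FPKM, and was 1.72-fold lower (1.65 to 1.80). Plk3 (chromosome 4) had 107 and 176 reads, 2.01 and 2.90 FPKM, a log2 ratio of 0.63 (0.28 to 0.99). The Plk3 value fell to 0.52 when scaled to library totals and then no longer passed. Per unit of length Plk2 stood at 41.1 times Plk3 in the control and 15.4 times in the knockdown library.

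The other 3 genes of this group did not pass. Btg2, an antiproliferative factor, had 1240 and 1632 reads (log2 ratio 0.31). Gtse1, a microtubule-binding protein made in S and G2 phase that moves p53 out of the nucleus, had 1160 and 1214 reads and a log2 ratio of -0.02 (-0.14 to 0.10), although its printed window also holds a site with 1 differing letter. Psrc1, a spindle protein, had 1836 and 1452 reads (log2 ratio -0.42). Gtse1 and Psrc1 are expressed with the cell division programme. Of 22 measured G2/M genes 2, Foxm1 (log2 ratio -0.81) and Kif20a (-0.60), were lower (9.09%, beside 12.3% of all measured genes). None was higher (beside 20.7%), and the median was -0.25. Log2 ratios lay above 0 for 7 of these genes and below it for 15. Kif20a did not pass with DESeq2 size factors (-0.57).

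**Figure D2:**
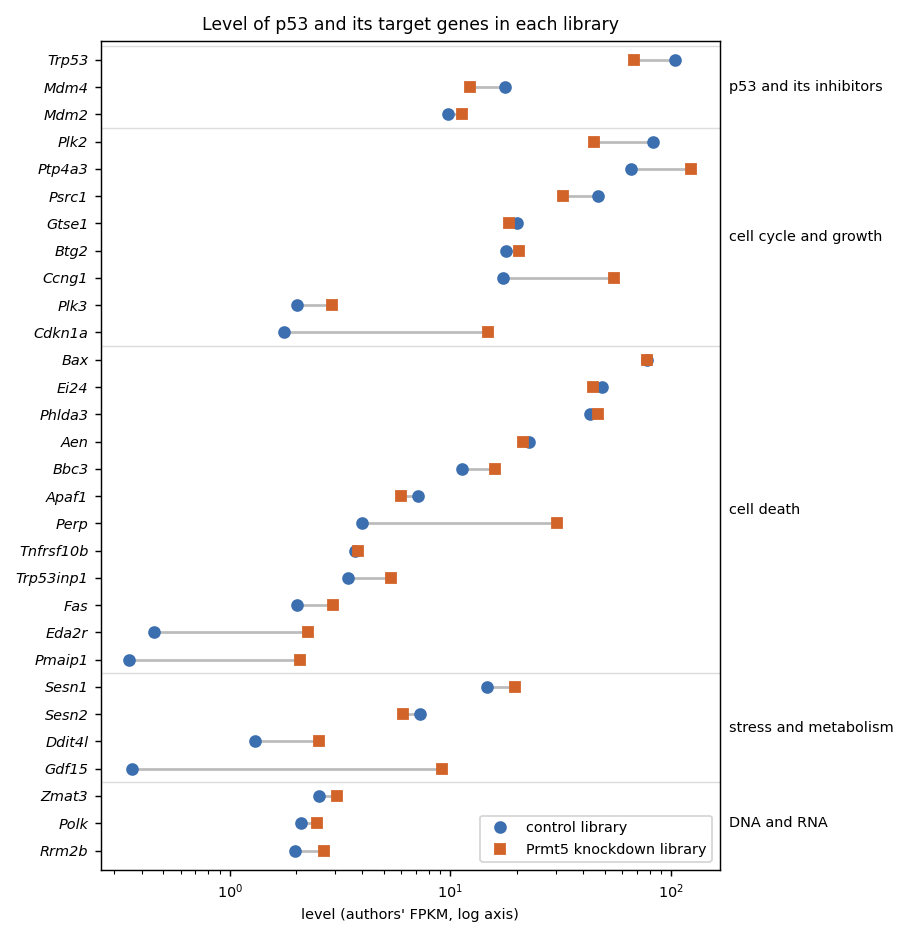
Level of each gene with control reads in the control library (circles) and the knockdown library (squares), in authors' FPKM on a log axis, grouped by role. Cdkn1a, Perp, Pmaip1, Eda2r and Gdf15 show the longest lines, from levels under 4 FPKM in the control, while Bax, Ei24, Phlda3 and Aen, all above 20 FPKM, have nearly coinciding symbols.

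Among 12 genes of cell death 6 were higher, none lower and 6 did not pass. The higher genes included a receptor, membrane proteins and triggers of the mitochondrial pathway. Perp (chromosome 10, 18845071 to 18857073) encodes a membrane protein that p53 induces in dying cells and that is also a part of desmosomes in stratified epithelia, where the p53 relative p63 induces it. It had 171 and 1489 reads, 3.98 and 30.3 FPKM, a log2 ratio of 3.03 (2.81 to 3.28). Markers of stratified epithelium moved with it. Of 7 measured of 10 such markers 6 were higher and none lower, with a median of 2.36, Krt15 (418 and 1662 reads) and Krt5 (99 and 1228) holding the most reads. Lor (76 and 231) and Col17a1 (143 and 164) followed with equal sums, and Col17a1 did not pass the rule (log2 ratio 0.11). Krt14 (16 and 178 reads), Dsc3 (11 and 62) and Pkp1 (10 and 129) reached the read minimum only in the knockdown library. These genes could have passed only as higher. The count of higher markers, the absence of lower ones and the median thus follow in part from the read minimum. The list took 0.00346% of all control reads against 0.0144% of knockdown reads, and none was at 0. Trp63, the gene of p63, had 41 and 171 reads (log2 ratio 1.96, 1.48 to 2.50), and Trp73, the third member of the family, had 10 reads in each library and was not measured. Trp63 too was measured only through the knockdown library and could have passed only as higher. The part of stratified epithelium in the Perp value was not tested.

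Pmaip1 (chromosome 18, 66458604 to 66465558) encodes Noxa, a BH3-only protein that neutralises survival factors of the BCL2 family. It had 21 and 143 reads, 0.350 and 2.09 FPKM, a log2 ratio of 2.66 (2.02 to 3.42). Eda2r (chromosome X, 97333837 to 97377234), the receptor of ectodysplasin A2, had 49 and 279 reads, 0.453 and 2.26 FPKM, and was 5.33-fold higher (3.95 to 7.43). The intervals of Cdkn1a, Perp, Pmaip1 and Eda2r overlapped from each to the next in order of ratio. Bbc3 (chromosome 7, 16308398 to 16318334), which encodes the BH3-only protein Puma, had 454 and 736 reads, 11.3 and 16.0 FPKM, and a log2 ratio of 0.61 (0.44 to 0.78).

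Trp53inp1, a nuclear protein that promotes p53 activity and autophagy, had 418 and 753 reads (log2 ratio 0.76, 0.59 to 0.94). Fas, the death receptor, had 54 and 90 reads (log2 ratio 0.65, 0.15 to 1.17), so its depth left a wide interval. Fas also marks several blood cell types, and all 10 immune markers were higher, with a median of 1.25 and shares of 0.0152% and 0.0325% of reads. The part of immune cells in the Fas value was not tested. Scaled to library totals, Bbc3 (0.50) and Fas (0.54) no longer passed. With FPKM and a pseudocount of 1, Trp53inp1 (0.53) did not pass either.

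The 6 genes of cell death that did not pass included the most abundant ones. Bax, which opens the outer mitochondrial membrane, had 3088 and 3520 reads, 78.1 and 77.8 FPKM, and a log2 ratio of 0.10 (0.03 to 0.17). Bax stood at 223 times the level of Pmaip1 per unit of length in the control and at 37.3 times in the knockdown library. Ei24, a membrane protein of the endoplasmic reticulum, had 2395 and 2487 reads (-0.03), and Phlda3, an inhibitor of the kinase Akt, had 1424 and 1778 reads (0.24). Aen, a nuclease, had 1244 and 1335 reads (0.02), and Apaf1, the scaffold on which caspases are activated, had 1050 and 1003 (-0.15). Tnfrsf10b, the mouse receptor of the death ligand TRAIL, had 266 and 314 reads (0.15, -0.09 to 0.40). These 6 log2 ratios thus spanned -0.15 to 0.24.

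Of 4 genes of stress and growth control 2 were higher and 2 did not pass. Gdf15 (chromosome 8, 70629393 to 70632470), a secreted stress hormone of the TGF-beta family, had the largest ratio of all 30 measured members. It had 10 control and 290 knockdown reads, 0.362 and 9.18 FPKM, a log2 ratio of 4.71 (3.87 to 5.85). At 10 control reads its 26.1-fold difference carried a counting interval from 14.7 to 57.7, and it could pass only as higher. Its interval lay above that of every other measured member. Ddit4l, an inhibitor of the growth kinase mTOR, had 80 and 178 reads (log2 ratio 1.07, 0.68 to 1.47).

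The sestrins, which hold back the same kinase when amino acids are short, did not pass. Sesn1 had 956 and 1463 reads (log2 ratio 0.53, 0.41 to 0.65), and Sesn2 had 437 and 420 (-0.14, -0.34 to 0.06). Their intervals did not overlap. Gdf15 and Sesn2 are also induced by the transcription factor ATF4 of the integrated stress response. Of 13 measured genes of that response 7 were higher (53.8%, beside 20.7% of all measured genes). The median of the 13 was 0.60, and 1 gene was lower (7.69%, beside 12.3%). The other 5 did not pass, among them Atf4 itself (log2 ratio 0.27), Ddit3 (0.54) and Psat1 (-0.26). Ppp1r15a (662 and 2767 reads, log2 ratio 1.98), Asns (1.78), Atf3 (1.60), Nupr1 (1.22), Cth (1.02) and Vldlr (0.60) were higher and Cebpb (-0.92) was lower, although Vldlr did not pass with library totals (0.49). The part of this response in the Gdf15 value was not tested.

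None of the genes of DNA and RNA metabolism passed. Rrm2b, a ribonucleotide reductase subunit that supplies nucleotides for repair, had 176 and 270 reads (log2 ratio 0.53, 0.25 to 0.82). Zmat3, an RNA-binding protein, had 454 and 625 reads (0.38), and Polk, a DNA polymerase that copies past damage, had 202 and 274 (0.35). All 3 lay above 0 with their intervals. Trp53cor1, the noncoding RNA lincRNA-p21 whose gene lies beside Cdkn1a, had no control reads (0) and 16 knockdown reads. Set against a floor of 3 control reads, with the 16 reads taken as counted, it was at least 5.03-fold higher, and the lower bound of its counting interval was 3.64-fold. It stayed under the minimum of 50 reads. In GENCODE 44.1% of its exon bases are shared with a gene on the other strand, and without a stated strand setting those reads cannot be told apart. Among the other members sharing with the other strand reached at most 8.0% of exon bases, in Rrm2b, and Bax shared 12.2% with a gene on its own strand.

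Ratios were larger among the less abundant members. Of 14 measured members with a mean level under 10 FPKM over both libraries 8 were higher (57.1%) and none lower, with a median log2 ratio of 0.64. Of 16 members at 10 FPKM or more 4 were higher (25.0%) and 1 was lower, with a median of 0.17. Genes at large showed the same order, with 28.4% of 7593 genes under 10 FPKM higher and 15.3% lower, and 12.3% of 6976 genes at or above it higher and 9.13% lower. The level of 10 FPKM was chosen after the values were seen. Gdf15, Pmaip1 and Eda2r, all under 10 FPKM, were measured only through the knockdown library and could have passed only as higher. Part of the share of higher members under 10 FPKM thus follows from the read minimum, which applied to genes at large as well. Among the 7 genes with a p53 site of at most 3 differing letters in the windows, Cdkn1a, Ccng1 and Bbc3 were higher. Gtse1, Aen, Sesn1 and Trp53 did not pass. Beside these stand the 40.0% of all measured members and 20.7% of all measured genes that were higher. That 40.0% includes Perp, Pmaip1, Trp53inp1 and Ptp4a3, which were higher but had no window to search. Zmat3, Rrm2b and Tnfrsf10b, which did not pass, had no window either.

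**Figure D3:**
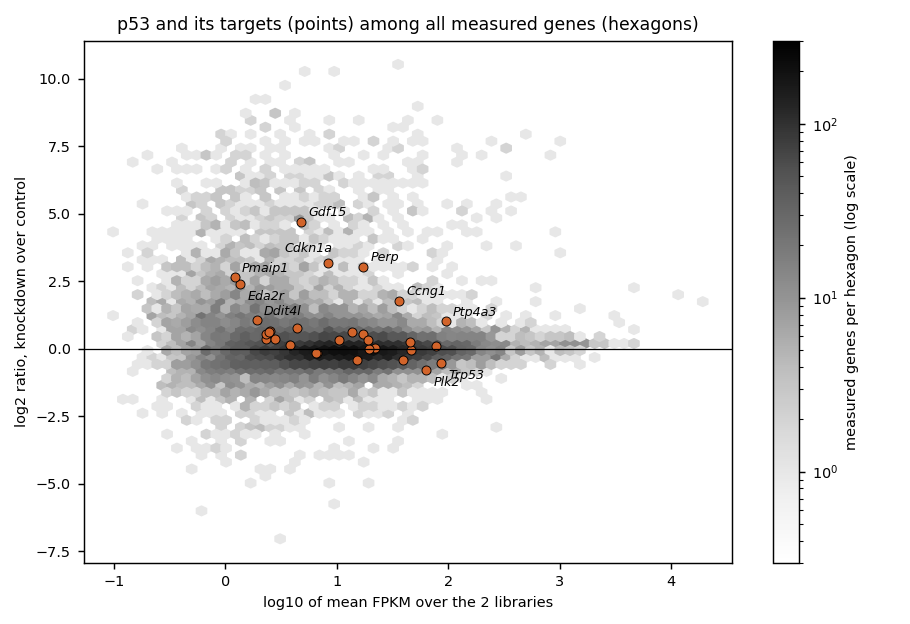
Log2 ratio of knockdown over control against the log10 of the mean FPKM, with all 14569 measured genes as grey hexagons shaded by number of genes on a log scale and the 30 measured p53 genes as points. Gdf15, Cdkn1a, Perp, Pmaip1 and Eda2r lie above a log2 ratio of 2, while the abundant Trp53 and Plk2 lie below 0.

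Beyond the set, 30 other genes reported as p53 targets were examined from a list of their own. That list too was chosen with earlier results of these data known. Of 28 measured 10 were higher (35.7%, beside 20.7% of all measured genes) and 3 lower (10.7%, beside 12.3%), with 15 not past the rule and a median log2 ratio of 0.28. Steap3, an iron reductase of erythroid cells and liver, had 121 and 1520 reads (log2 ratio 3.56, 3.30 to 3.85). Ak1, an adenylate kinase abundant in muscle, had 673 and 2881 reads (2.01), and Ephx1, a detoxifying epoxide hydrolase of the liver, had 59 and 299 (2.25). The liver, muscle and red blood cell markers given above were higher in the same library, and their part in these values was not tested. Gadd45a, a growth arrest and DNA damage gene, had 95 and 440 reads (2.12, 1.80 to 2.46), the thiamine carrier Slc19a2 had 241 and 596 (1.22), and the adhesion protein Ninj1 had 630 and 1422 (1.09). The lower genes were the autophagy regulator Dram1 (665 and 258 reads, -1.45), the lipid transfer protein Pltp (1276 and 607, -1.16) and the immediate early gene Ier5 (2377 and 1281, -0.98).

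Of 24 measured regulators upstream of p53 and relatives of it, 2 were higher (8.33%, beside 20.7% of all measured genes), 1 was lower (4.17%, beside 12.3%), and the median was -0.19. Atm, the kinase that activates p53 after DNA breaks, had 1081 and 750 reads (log2 ratio -0.61, -0.75 to -0.48) and was the lower gene. Chek2, the kinase that relays its signal, had 349 and 580 (0.65, 0.45 to 0.84), and the other higher gene was Trp63, which could have passed only as higher. Atm did not pass with DESeq2 size factors (-0.58) or with FPKM and a pseudocount of 1 (-0.57), and Chek2 did not with library totals (0.54).

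**Figure D4:**
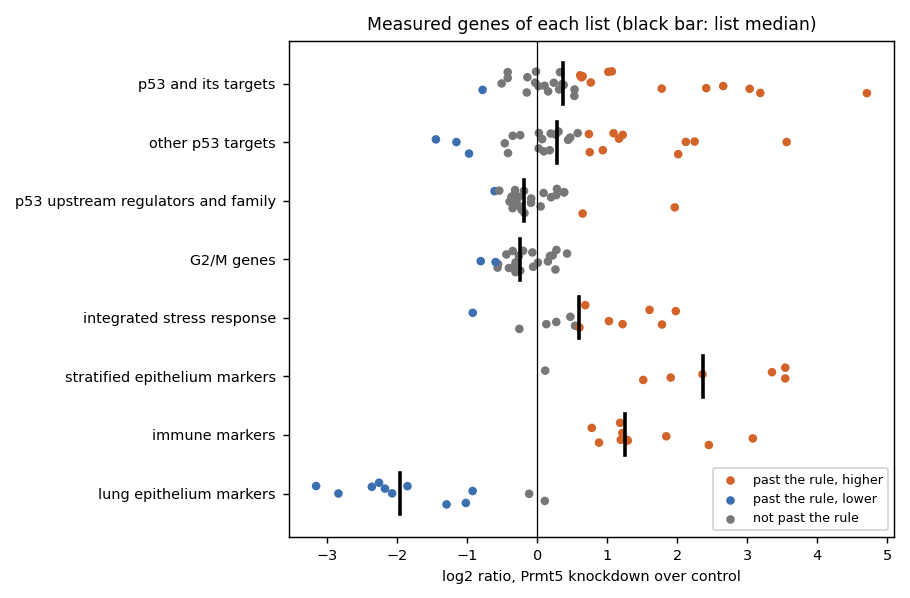
Log2 ratio of knockdown over control for each measured gene of 8 lists, coloured by the rule of size, with a black bar at the list median and vertical scatter for legibility only. Medians are 0.37 for the p53 genes, 0.28 for other p53 targets, -0.19 for upstream regulators, -0.25 for G2/M genes and 0.60 for the integrated stress response, beside 2.36 for stratified epithelium, 1.25 for immune and -1.96 for lung epithelium markers.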

How the data were processed

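Whole-lung polyadenylated RNA was sequenced in 2 libraries. Per the submitters' processing notes, the tools were Bowtie2 2.2.3, TopHat2 2.0.12 and HTSeq 0.6.1 on build mm10; annotation, strand setting and multiple mapping: not given in the sources used here. The authors deposited raw read counts and FPKM values for 41709 entries, with NCBI gene numbers. The deposited FPKM equalled the count divided by the library total and a gene length, which was a whole number (tolerance 0.001 bp) for 100.0% of 22831 genes detected in each library. Symbols and coordinates came from RefSeq on GRCm38.p6, which mm10 denotes, exon overlaps from GENCODE M21 and promoter windows from RefSeq.

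Counts were scaled to effective library sizes by the trimmed mean of M values (TMM; edgeR 4.0.16, R 4.3.3). A prior count of 0.5, in proportion to library size, entered each ratio. Intervals are exact Clopper-Pearson 95% intervals of the 2 counts given their sum (SciPy 1.17.1); they and the floor of 3 counts cover counting error only. A gene was measured with 50 reads in at least 1 library. It passed the rule of size at a ratio of 1.5 or its inverse with an interval excluding 1. No p-value was possible with 1 library per group. The calculation was tested on simulated data. All 31 members are reported. From the other p53 and stress lists up to 6 genes past the rule in each direction were taken, ranked by the interval bound nearest to 1, from marker lists those with the most reads or with none, and Prmt5, Shh, Trp63 and Trp73. The members and lists were chosen with earlier results of these data known. DESeq2 1.42.0 size factors were among the alternatives.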

Additional observations from a re-analysis of the deposited data

How the results depend on the processing

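Of the 11 other settings tried, none took the number of higher members beyond 1.5 times away from 12, and the count ran from 8 (a ratio of at least 2, a minimum of 200 reads, or FPKM with a pseudocount of 1) to 14 (TMM scaling over genes with at least 50 control reads, a setting added after the data were seen, which also took in Sesn1 and Rrm2b). The number of lower members, 1 with the main settings, was 2 with library totals, 2 with totals that left out liver, heart, skeletal muscle and red blood cell genes, 2 with FPKM at a pseudocount of 0.1 and 2 with FPKM at a pseudocount of 1, since Trp53 then passed, and 0 at a ratio of at least 2. The members' median log2 ratio of 0.37 was 0.20 with FPKM at a pseudocount of 1 and 0.77 as a mean. Cdkn1a, Ccng1, Eda2r, Perp, Gdf15 and Ptp4a3 passed as higher under all 11 settings, and no member past the rule changed sign under any of them. The counts of other p53 targets stayed within 1.5 times of 10 higher and 3 lower. No paired analysis was possible because each group has 1 library without a replicate number, and for the same reason no library could be left out. Depth limited Gdf15, Pmaip1, Eda2r, Fas and Trp53cor1, with 54 or fewer control reads each.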
